A study of Mus musculus with 4 samples.

Results

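The 10 genes described here work in or pass through the lysosome: the cathepsins Ctsb, Ctsd, Ctss, Ctsl and Ctsz, the protease Lgmn, the lipase Lipa, the cholesterol carriers Npc1 and Npc2, and the progranulin gene Grn. They were chosen by name, with earlier results of these data known, as 10 of the 33696 genes of the expression matrices. Their levels were read in 4 classes of peritoneal leukocytes. The working name of the set, lysosomal proteases and lipid exporters, covers Lipa and Grn loosely, because Lipa encodes an ester hydrolase and Grn a glycoprotein. The cells came from wild-type mice fed chow (CD) or high-fat food (HFD) from an age of 4 weeks for 3 months, were washed from the peritoneal cavity with RPMI medium, sorted for the leukocyte protein CD45 and profiled by droplet 3' single-cell RNA sequencing with B-cell receptor sequencing. Each diet has 1 expression library, and neither the number of mice nor any pooling is given. A treatment note in the labels puts both groups on the high-fat diet, while the titles set CD apart from HFD and the series design names chow for CD, which was followed. With 1 library per diet there is no test between diets, no p-value is given, and diet, mouse and library preparation cannot be told apart.

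Lysosomes break down what macrophages engulf, and cathepsins are their main proteases. Ctsb, Ctsl, Ctss and Ctsz are cysteine proteases, Ctsd is an aspartic protease, and Lgmn, or legumain, cuts after asparagine and also processes other cathepsins. Lipa, or lysosomal acid lipase, frees cholesterol and fatty acids from engulfed lipoproteins, after which the soluble Npc2 hands cholesterol to the membrane protein Npc1 for export from the lysosome. Grn encodes progranulin, which is secreted or sorted to the lysosome and cut there into granulins.

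Large macrophages were barcodes with at least 5 unique molecular identifiers (UMIs) over Adgre1, Prg4, Alox15 and Garnl3 and at most 2 over Folr2 and Cbr2. Folr2 macrophages had at least 3 UMIs over Folr2 and Cbr2, and dendritic cells at least 2 over Cd209a and Flt3. These 3 classes held no barcode of the receptor tables, and B barcodes were those in the receptor tables. The classes held 2064 large macrophages in CD and 1341 in HFD, 194 and 192 Folr2 macrophages, 230 and 82 dendritic cells, and 7112 and 3677 B barcodes. T barcodes, with at least 3 UMIs over Cd3d, Cd3e and Cd3g, gave a reference of 858 and 719.

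The HFD library was deeper, with a median of 11546 UMIs per large macrophage against 4754.5 in CD, 18053 against 8251 per Folr2 macrophage, 12022 against 7349 per dendritic cell and 5983 against 4628 per B barcode. The 6 markers of large macrophages (Gata6, Timd4, Vsig4, Icam2, Fn1, Selp) summed to 8376 and 11877 CPM (counts scaled to 1000000 UMIs of the class) in large macrophages and to 8378 and 11651 CPM in Folr2 macrophages of CD and HFD. Fn1 made up most of these sums, at 6313 and 9831 CPM in large macrophages and 6755 and 9817 CPM in Folr2 macrophages. All the other markers of the list were lower in Folr2 macrophages of CD, and all but Vsig4 in HFD. Timd4, at 226 and 95.7 CPM, and Vsig4, at 370 and 116 CPM, were lower in large macrophages of HFD, while the others were higher. The sums alone do not separate the classes, and the Folr2 class is named only by its rule. RNA of other lineages differed between the libraries: the 6 B-cell markers summed to 1066 CPM in large macrophages of CD and 249 in HFD, to 588 and 93.9 CPM in Folr2 macrophages, and to 1981 and 584 CPM in dendritic cells, with no marker at 0. The 7 dendritic markers (Zbtb46, Itgax, Clec10a, Ccr7, Xcr1, Clec9a, Dpp4) summed to 821 and 916 CPM in dendritic cells, less than the large macrophage markers there, at 1585 and 1734.5 CPM, and, in CD, less than the B-cell markers. The 6 markers of the Folr2 class (Mrc1, Lyve1, Cd163, Retnla, Ccr2, Mgl2) summed to 6135 CPM in that class in CD and 2534 in HFD. Retnla made up most of these sums, at 5743 and 2317 CPM. All but Mgl2 were above large macrophages in both libraries. Mgl2 was at 13.7 and 33.8 CPM, against 14.6 and 35.1 CPM in large macrophages. Ccr2, at 92.4 and 48.5 CPM, was below dendritic cells, at 345 and 425 CPM. The 8 macrophage reference genes (C1qa, C1qb, C1qc, Prg4, Alox15, Adgre1, Cd5l, Fn1) summed to 2241 CPM in B barcodes of CD and 1425 in HFD. Cycling barcodes made up 1.36% of large macrophages and 1.55% of Folr2 macrophages in CD, against 9.62% and 17.7% in HFD. The libraries shared 30 barcode sequences. Of the dendritic barcodes, 32 in CD and 12 in HFD also met the rule for large macrophages, and 4 and 1 that for Folr2 macrophages.

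CACGTG is the core of the element bound by the lysosomal regulator Tfeb and its relatives, and the windows that hold it are shown because these are the promoters of a lysosomal gene set. Windows from 250 bases before to 50 after the start were in the RefSeq table (build GRCm38.p6) for 8 of the 10 genes, which had 9 windows. Ctsb and Npc1 are named only. The letters CACGTG, the same on both strands, stood in 3 of the 9 windows (33.3%) and in 2349 of 32851 windows of all genes (7.15%). The windows of Ctsz, Ctss, Grn, Npc2 and Lipa did not hold these letters, and neither did the other window of Lgmn. A match is a description of the sequence and not a binding site. The stretches below are on the minus strand of chr7:142388050-142388077 and chr7:142387903-142387942 (Ctsd, with the motif 245 and 98 bases before the start), chr12:102439119-102439158 (Lgmn, 49 bases before) and chr13:64370734-64370770 (Ctsl, 236 bases before), with the motif in capitals.
Ctsd, far site: tccccCACGTGacctgtatccagtcatt
Ctsd, near site: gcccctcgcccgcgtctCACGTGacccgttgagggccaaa
Lgmn: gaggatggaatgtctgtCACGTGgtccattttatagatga
Ctsl: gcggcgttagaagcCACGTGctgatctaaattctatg

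Macrophages carried the most RNA of the set per UMI. The 10 genes summed to 6716 CPM in large macrophages of CD and 6792 in HFD, and to 7399 and 7316 CPM in Folr2 macrophages. Dendritic cells had 3178 and 3364 CPM, B barcodes 1629.7 and 1545 CPM, and T barcodes 1172 and 1114 CPM. A 3' UMI stands for 1 captured molecule whatever the length of the gene, so no scaling to length was made, and how well each gene is captured is not known. Intervals throughout are exact 95% intervals for counting error only.

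The proteases differed in how far they stood out in macrophages. Ctsd, the aspartic protease, reached 1242 CPM in large macrophages of CD and 1439 in HFD, against 269 and 279 CPM in dendritic cells and 143 and 108 CPM in B barcodes. Ctsl, a cysteine protease of the endosome and lysosome, was at 249 and 310.4 CPM in large macrophages, 54.4 and 72.0 CPM in dendritic cells and 25.1 and 20.2 CPM in B barcodes. Ctsb, which cleaves proteins from both inside and the end of the chain, was at 1107 and 948 CPM in large macrophages, 337 and 337 CPM in dendritic cells and 173 and 133 CPM in B barcodes. These 3 genes were 2.82-fold to 5.15-fold higher in large macrophages than in dendritic cells in each library. These folds depend on mixed barcodes: without barcodes that carried markers of another lineage in either class, Ctsd was 25.0-fold and 25.9-fold higher in large macrophages, Ctsl 32.2-fold and 22.2-fold and Ctsb 5.91-fold and 4.71-fold. Ctsb was also higher in Folr2 macrophages, at 1558 and 1254 CPM, which is 1.41-fold and 1.32-fold above large macrophages.

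Ctss and Ctsz were spread more evenly. Ctss, which trims the invariant chain for antigen presentation, was at 1533 CPM in large macrophages, 1389.5 in Folr2 macrophages, 1216 in dendritic cells and 574 in B barcodes of CD. In HFD the corresponding levels were 1109, 1009.6, 1196 and 582 CPM, so that dendritic cells were highest there and large macrophages were highest in CD. Ctsz, a carboxypeptidase, was at 464 and 484 CPM in large macrophages and at 287 and 287 CPM in B barcodes, a ratio of 1.62 and 1.69. Among the UMIs of the 5 cathepsins, Ctss made up 54.0% and 52.4% in dendritic cells and 47.8% and 51.5% in B barcodes, against 33.4% and 25.8% in large macrophages and 26.8% and 21.0% in Folr2 macrophages of CD and HFD. Ctsd was the cathepsin with the largest share in both macrophage classes of HFD, at 33.5% and 33.0%.

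**Figure D1:**
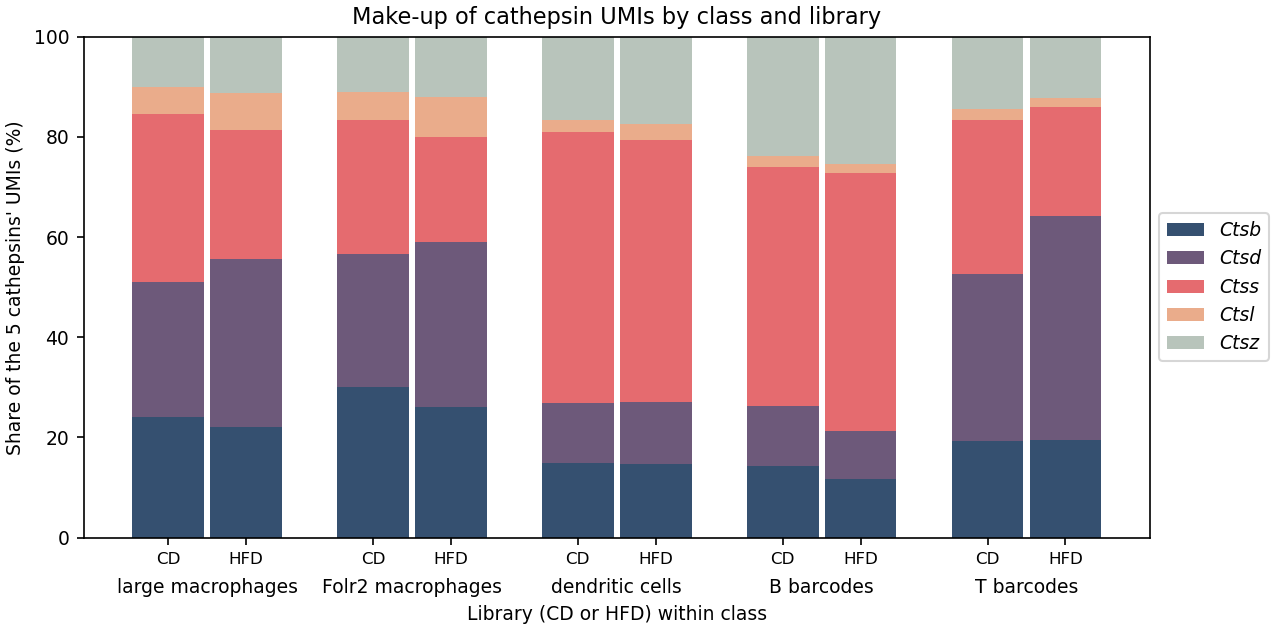
Share of each of the 5 cathepsins (percent, vertical axis, stacked bars) among their summed UMIs, by class and library (horizontal axis). Ctss fills 54.0% and 52.4% of the bars of dendritic cells and 33.4% and 25.8% of those of large macrophages in CD and HFD.

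Lgmn was at 309 CPM in large macrophages of CD and 326 in HFD, 281 and 325 CPM in Folr2 macrophages, 102 and 106 CPM in dendritic cells and 50.5 and 44.4 CPM in B barcodes. T barcodes held 13.5 and 10.2 CPM, so large macrophages were 22.9-fold and 31.9-fold above them, a wide span to T barcodes that Grn followed at 18.9-fold and 30.5-fold. These folds depend on mixed barcodes. Without them, Lgmn was at 5.30 and 8.18 CPM in T barcodes and at 348 and 338 CPM in large macrophages. Grn was then at 35.3 and 39.8 CPM in T barcodes and at 1019 and 1340 CPM in large macrophages. Grn was at 885 and 1285 CPM in large macrophages, 987.5 and 1305 CPM in Folr2 macrophages, 264 and 388 CPM in dendritic cells, 107 and 125 CPM in B barcodes and 46.8 and 42.1 CPM in T barcodes. Large macrophages therefore held 3.35-fold and 3.31-fold the Grn level of dendritic cells, or 6.35-fold and 5.96-fold without mixed barcodes.

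The lipid genes were flatter over the classes, apart from Npc2. Lipa was at 72.6 and 71.6 CPM in large macrophages, 78.8 and 80.1 CPM in Folr2 macrophages, 71.6 and 78.8 CPM in dendritic cells and 42.8 and 42.8 CPM in B barcodes. The intervals of the ratios between neighbours in this order included equality among the macrophage classes and dendritic cells in both libraries. Npc1, the membrane protein of the cholesterol exit route, ran from 10.4 to 18.6 CPM over the 4 classes, and no neighbouring pair in the order of classes was told apart by counting error. Large macrophages were above B barcodes, with a log2 ratio of 0.44 (0.18 to 0.69) in CD and 0.44 (0.18 to 0.69) in HFD. Npc2 was at 841 and 805 CPM in large macrophages, 476 and 495 CPM in dendritic cells, 217 and 193 CPM in B barcodes and 348 and 369.9 CPM in T barcodes. B barcodes were thus below T barcodes for Npc2, and also for Ctsd, which stood at 238 and 289.6 CPM in T barcodes.

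**Figure D2:**
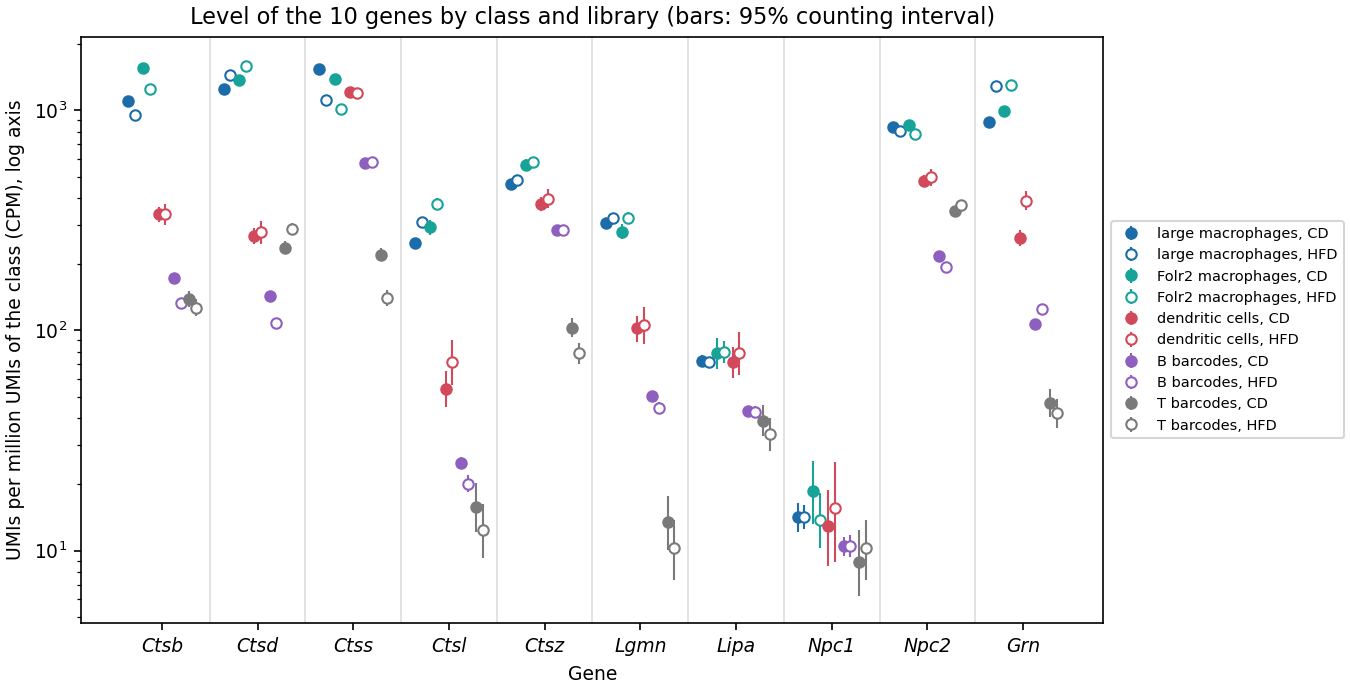
Level of each of the 10 genes (CPM, log axis) by class in the CD and HFD libraries, with exact 95% counting intervals. Macrophage classes are highest for most genes, and Npc1 lies between 10.4 and 18.6 CPM in the 4 classes.

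Over the 10 genes, the Folr2 class was highest for 8 and large macrophages for 2 in CD. In HFD, the Folr2 class was highest for 6, large macrophages for 2 and dendritic cells for 2. The highest class was not told apart from the next for Lipa, Npc1 and Npc2 in either library. The same held for Lgmn and Grn in HFD. The share of all measured genes highest in each class is not given, so these counts do not set the members apart. Of the 40 steps between neighbouring classes in each library, the interval included equality at 8 in CD and 11 in HFD.

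Detection followed the levels and the depth. Ctsd had a UMI in 94.5% of large macrophages in CD and 97.5% in HFD, in 43.5% and 52.4% of dendritic cells, in 30.3% and 35.1% of B barcodes and in 58.3% and 65.9% of T barcodes. Barcodes were then thinned to 2000 UMIs each, which left out 249 and 64 large macrophages, 148 and 94 B barcodes and 113 and 28 T barcodes below that depth. The thinned Ctsd shares were 85.9% and 86.9% in large macrophages, 15.8% and 14.9% in B barcodes and 36.8% and 37.9% in T barcodes. Median depths were 3870.5 and 5127 UMIs in T barcodes. The Ctsd share of B barcodes was below that of T barcodes, thinned or not. T barcodes give no background level for Ctsd, since Ctsd was at 276 and 287 CPM in the 550 and 501 T barcodes without markers of another lineage. Ctss had a UMI in 87.5% and 93.1% of B barcodes and in 44.9% and 43.0% of T barcodes, and after thinning in 64.7% and 67.2% against 28.3% and 21.9%. Grn had a UMI in 90.2% and 96.2% of large macrophages, 26.5% and 39.0% of B barcodes and 14.8% and 16.8% of T barcodes. Thinned, the Grn shares were 77.1% and 88.3% in large macrophages, 13.2% and 15.5% in B barcodes and 6.58% and 7.09% in T barcodes. Npc1 had a UMI in 8.19% and 16.3% of large macrophages, which became 3.14% and 3.29% after thinning.

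The distance between large macrophages and B barcodes differed widely among the members. The 8 macrophage reference genes were 12.7-fold to 13.9-fold higher in large macrophages than in B barcodes of CD and 18.5-fold to 24.4-fold higher in HFD. Prg4, Alox15 and Adgre1 among them also set the large macrophage rule, so their excess there follows in part from the rule. The reference genes outside the rule ran from 12.7-fold to 13.9-fold in CD and from 18.5-fold to 21.4-fold in HFD. Over all barcodes of both classes, Ctsl, at 9.91-fold and 15.4-fold, and Ctsd, at 8.66-fold and 13.3-fold, came closest to these values. Grn followed, at 8.30-fold and 10.3-fold, then Ctsb, at 6.40-fold and 7.15-fold, and Lgmn, at 6.11-fold and 7.33-fold. Ctss was 2.67-fold and 1.91-fold higher in large macrophages, Ctsz 1.62-fold and 1.69-fold and Npc2 3.88-fold and 4.17-fold. With mixed barcodes left out of both classes, Ctsl was 37.6-fold and 37.96-fold higher in large macrophages and Ctsd 24.7-fold and 25.3-fold. Grn was then 18.4-fold and 16.1-fold higher, Ctsb 13.4-fold and 9.66-fold and Lgmn 10.01-fold and 8.94-fold. Npc2 was at 5.76-fold and 5.02-fold, Ctss at 3.26-fold and 1.99-fold and Ctsz at 1.78-fold and 1.75-fold. No folds of the reference genes are given for that setting, so the members were compared with them over all barcodes only. Without barcodes that carried markers of another lineage, 5812 and 2729 B barcodes remained, in which Ctsd was at 57.1 and 59.4 CPM, Ctsl at 7.43 and 8.22 CPM and Ctss at 507 and 563 CPM. In the 95 and 47 dendritic barcodes left, Ctsd, at 56.4 and 58.0 CPM, and Ctsl, at 8.67 and 14.1 CPM, were likewise below their levels in all dendritic cells. Ctss was not, at 1474 and 1195 CPM against 1216 and 1196 CPM in all dendritic cells. After subtraction of the large macrophage profile from B barcodes, Ctsd was at 53.3 CPM in CD against 40.9 in HFD.

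In large macrophages, Grn was higher and Ctss lower in the HFD library. Grn stood at 885 CPM in CD and 1285 CPM in HFD. Its log2 ratio was 0.54 (0.51 to 0.57). Ctss stood at 1533 and 1109 CPM. Its log2 ratio was -0.47 (-0.49 to -0.44). Of the genes measured in large macrophages, 10.7% had a larger ratio in either direction than Grn, and 13.8% a larger one than Ctss. Ctsl was also higher, at 0.32 (0.26 to 0.38), as was Ctsd, at 0.21 (0.18 to 0.24), while Ctsb was lower, at -0.22 (-0.25 to -0.19). The other 5 genes lay between -0.06 for Npc2 and 0.08 for Lgmn.

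No member reached a fold of 1.5 in large macrophages in either direction. Of 5531 measured genes, 3.65% were higher in HFD by that fold and 5.71% lower, and 9 of the 10 members were measured, Npc1 being under the minimum level. Without that minimum, 10.0% of 16155 genes were higher and 17.9% lower. The interval lay above 0 for 5 members, below 0 for 3 and held 0 for 2. The share of all measured genes with an interval off 0 is not given. These counts therefore do not set the members apart from other genes. The median log2 ratio was 0.03 over the members and -0.02 over all measured genes. These differences lie beside a B-cell marker sum of 1066 CPM in CD and 249 in HFD. After subtraction of the B barcode profile, which took 14.7% and 3.30% of the UMIs, Grn was at 0.38, Ctss at -0.59, Ctsb at -0.38 and Ctsd at 0.05, so Ctss passed the fold of 1.5 and Ctsd kept little of its difference. In 12 alternative settings, the log2 ratio of Grn was 0.38 to 0.56 and that of Ctss -0.59 to -0.42. The direction held in all 12 for 6 of the 10 members (Ctsb, Ctsd, Ctss, Ctsl, Npc2 and Grn), while Lgmn ran from -0.07 to 0.10.

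**Figure D3:**
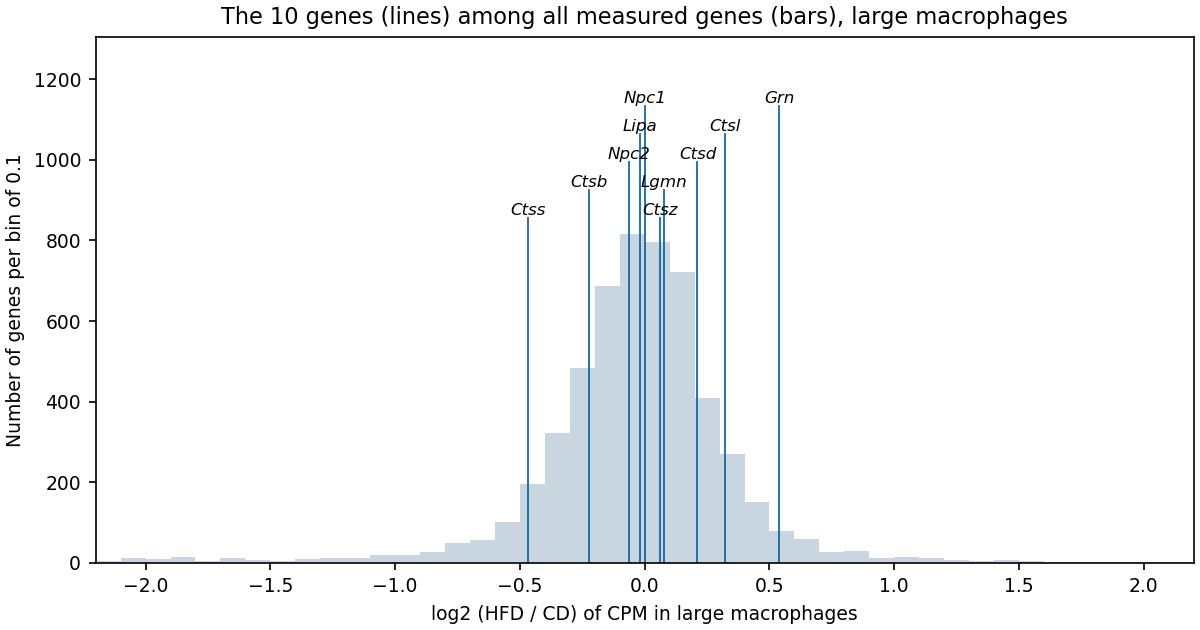
Histogram of the HFD over CD log2 ratio of the 5531 genes measured in large macrophages (horizontal axis, log2; vertical axis, number of genes), with the members marked. Grn, at 0.54, and Ctss, at -0.47, are the outermost members, and no member passes a fold of 1.5.

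Folr2 macrophages showed similar values from fewer barcodes. Grn stood at 987.5 CPM in CD against 1305 in HFD. That is a log2 ratio of 0.40 (0.33 to 0.48). Ctss stood at 1389.5 and 1009.6 CPM, a ratio of -0.46 (-0.53 to -0.39). Ctsb was at -0.31 (-0.38 to -0.25), Ctsl at 0.36 (0.22 to 0.50), Ctsd at 0.21 (0.15 to 0.28) and Lgmn at 0.21 (0.06 to 0.36). Without cycling barcodes, Ctsb was at -0.19. No member passed the fold of 1.5, against 5.78% of 5860 genes higher and 8.87% lower. The interval lay above 0 for 4 members, below 0 for 3 and held 0 for 3, among them Npc1, at -0.43 (-1.07 to 0.22) from 38 and 49 UMIs. That share of all measured genes is not given here either, so the counts do not set the members apart. These ratios lie beside B-cell markers of 588 CPM in CD and 93.9 in HFD. Without mixed barcodes, 122 and 159 Folr2 macrophages remained. Lgmn was then at 0.08 (-0.09 to 0.25), Ctsd at 0.13 (0.05 to 0.20) and Ctsl at 0.19 (0.03 to 0.35). Grn was at 0.35 (0.26 to 0.44), Ctss at -0.55 (-0.63 to -0.47) and Ctsb at -0.42 (-0.50 to -0.35). Both macrophage classes came from the same 2 libraries, so the likeness between them is no replicate.

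In dendritic cells, Grn was higher in HFD, and no difference beyond counting error was seen for the other 9 genes. Grn was at 264 CPM in CD against 388 in HFD. The log2 ratio was 0.56 (0.37 to 0.74). Ctss was at 1216 and 1196 CPM, with a ratio of -0.02 (-0.12 to 0.07), and Ctsb at 337 CPM in both. The widest interval of the 9 was that of Npc1, -0.72 to 1.22. No member passed the fold of 1.5, against 7.33% of 5961 genes higher and 8.20% lower. The ratio of Grn was 0.30 to 0.86 over 13 alternative settings, and in barcodes without markers of another lineage it was 0.49 (0.11 to 0.87). In those same barcodes Ctss was lower, at 1474 CPM in CD against 1195 in HFD, with a log2 ratio of -0.30 (-0.44 to -0.16).

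In B barcodes, Ctsb, Ctsd and Ctsl were lower in HFD, with log2 ratios of -0.38 (-0.44 to -0.32), -0.41 (-0.47 to -0.34) and -0.32 (-0.47 to -0.16). The interval lay below 0 for 5 members, these 3 with Lgmn, at -0.18, and Npc2, at -0.17, above 0 for Grn, and held 0 for 4. As in macrophages, no share of all measured genes with an interval off 0 is given beside these counts. Ctss was at 574 and 582 CPM and Ctsz at 287 and 287 CPM. Grn was at 107 CPM in CD against 125 in HFD, a ratio of 0.23 (0.16 to 0.29). No member passed the fold of 1.5, against 1.52% of 5527 genes higher and 2.01% lower. The lower values stood beside a macrophage reference of 2241 CPM in CD and 1425 in HFD. The 4 neutrophil markers (S100a8, S100a9, Retnlg, Ly6g) summed to 0.659 CPM in B barcodes of CD, with 3 of them at 0, and to 117 CPM in HFD, with none at 0, and their part in the Grn difference was not tested. Without the barcodes that carried markers of another lineage, Ctsb was at 0.09 (0.01 to 0.18), Ctsd at 0.06 (-0.05 to 0.17) and Ctsl at 0.15 (-0.16 to 0.45), so the direction of all 3 turned. Lgmn turned as well, to 0.12 (-0.02 to 0.26), and Npc2 was at -0.01 (-0.07 to 0.06). Ctss was higher in HFD in these barcodes, at 0.15 (0.12 to 0.19), from 507 and 563 CPM, and Ctsz was at 0.01 (-0.04 to 0.06). Grn was then at 0.59 (0.49 to 0.69), from 55.3 and 83.1 CPM. That filter used T-cell, macrophage and dendritic markers and no neutrophil marker, so barcodes with neutrophil RNA were not taken out by it. In barcodes of 4000 to 12000 UMIs, a window chosen after the data were seen, the Grn ratio was -0.05.

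**Figure D4:**
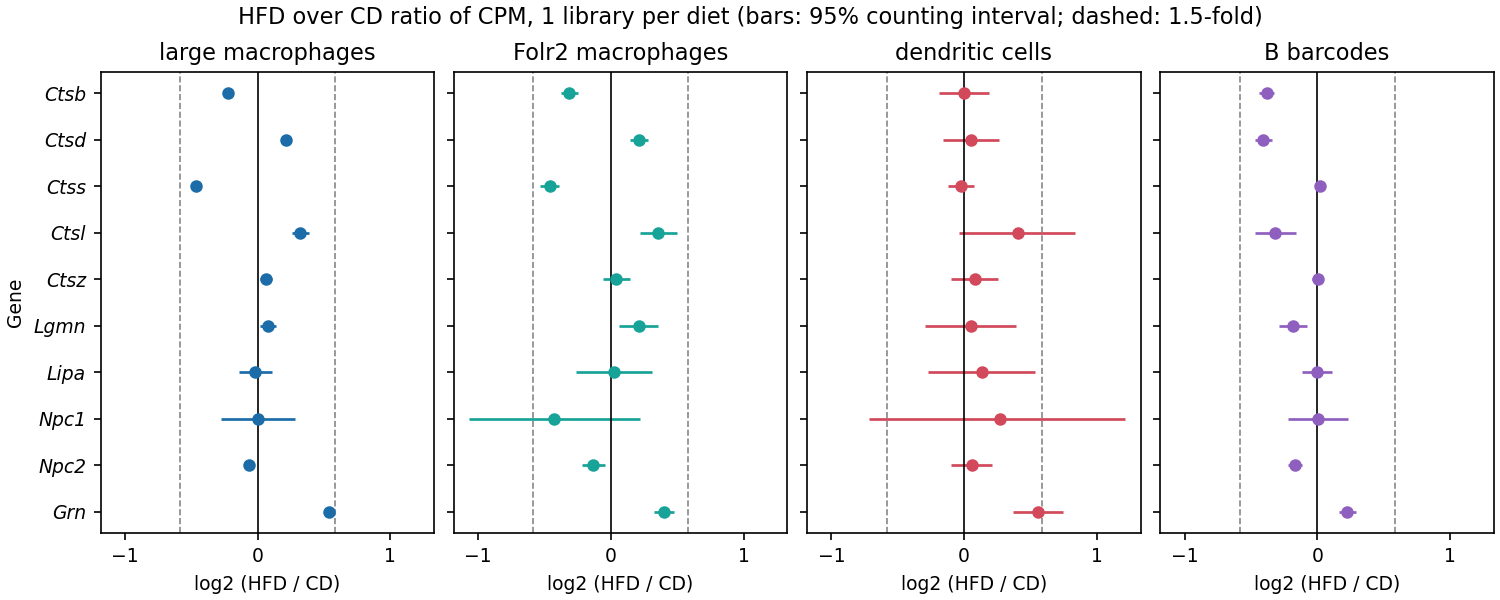
HFD over CD log2 ratio of each member (horizontal axis, log2, with exact 95% counting intervals) in the 4 classes. Grn is above 0 in all 4 classes, from 0.23 in B barcodes to 0.56 in dendritic cells, and Ctss is below 0 beyond its interval in both macrophage classes.

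In T barcodes, used as a reference, Ctss was at 220.3 CPM in CD against 140.4 in HFD, beside B-cell markers of 1715 and 429 CPM. After subtraction of the B profile, Ctss was at 111 and 114 CPM. Grn was at 46.8 and 42.1 CPM. The log2 ratio of Grn there was -0.15 (-0.46 to 0.15).

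The higher Grn and lower Ctss of HFD were seen in cycling barcodes, those with at least 3 UMIs over 6 cycling genes, and in the other barcodes. In large macrophages of HFD, Grn was at 1109.5 CPM in 129 cycling barcodes and at 1311 CPM in 1212 others, against 720.1 CPM in 28 cycling and 889 CPM in 2036 other barcodes of CD. Ctss was at 851 CPM in cycling and 1149 in other barcodes of HFD, and at 1205 and 1540.5 CPM in CD. Grn and Ctss were thus lower in cycling barcodes in both libraries.

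Within large macrophages the genes varied little together from barcode to barcode. In counts thinned to 2000 UMIs, the correlations of the 45 pairs of members ran from -0.04 to 0.19 in CD, with a median of 0.05, and from -0.08 to 0.16 in HFD, with a median of 0.03. The ratio of variance to mean of the members ran up to 1.53, that of Ctsd in HFD. A correlation this low in sparse counts is no finding.

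Other lysosomal genes were counted in large macrophages by lists of function. The lists were chosen with earlier results of these data known, so their counts and medians are a description. Their ratios are without subtraction of the B barcode profile, which lowered the ratios of Grn and Ctsd above. Of 9 other cathepsins, 5 were measured and none passed the fold of 1.5. Ctsf was at 0.44, Ctsa, or protective protein, at 0.22, Ctsh at -0.21 and Ctso at -0.36 on the log2 scale. Of 10 protease inhibitors, 5 were measured and 3 were higher by 1.5-fold or more, beside 3.65% of all genes, with a median of 0.63. Serpinb1a, an inhibitor of neutrophil serine proteases, stood at 194 and 445 CPM. Its log2 ratio was 1.19 (1.13 to 1.26), and that of Serpinb6a 0.64. Serpinb1a was at 1.12 in Folr2 macrophages, 0.69 in dendritic cells and -0.31 in B barcodes. Cst3, or cystatin C, an inhibitor of cysteine cathepsins, was lower, at -0.28, and Cstb was at 139 CPM in both libraries.

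Of 14 lysosomal membrane proteins, 11 were measured and 1 was lower by 1.5-fold: Cd63, a tetraspanin, at 131 and 62.8 CPM. The log2 ratio of Cd63 was -1.06 (-1.17 to -0.95). Laptm5 was at 0.34, Cd68, a macrophage glycoprotein of the lysosome, at 0.33, and Cln3 at -0.25. Of 17 proton pump subunits, 16 were measured, none passed the fold and the median was 0.01. Atp6v0d1 was highest at 0.30. Of 20 glycosidases and sulfatases, 14 were measured and 1, Gusb, or beta-glucuronidase, passed the fold, at 0.66, with a median of 0.21. Of 12 lysosomal lipid enzymes and activators, 11 were measured and 1 was lower by the fold, Pla2g15, a phospholipase, at -0.96.

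Among 13 sorting proteins and lysosome regulators, 9 were measured and 1 passed the fold. That gene was Sort1, or sortilin, a receptor of progranulin, at 26.3 and 47.7 CPM. On the log2 scale Sort1 was at 0.86 (0.67 to 1.04). Tfeb, the transcription factor of the lysosomal program, was at -0.43 (-0.65 to -0.21) from 25.9 and 19.2 CPM. Of the 6 progranulin partners, 4 were measured and all 4 were above 0, beside 47.4% of all measured genes, with a median of 0.56. This list too was chosen with earlier results known, so the count is no independent support. Sort1 is one of them, and the others are Slpi, an inhibitor that shields progranulin from elastase, which also stands in the list of protease inhibitors, at 0.63, Lrp1 at 0.49 and Psap, or prosaposin, at 0.12. Of 14 sterol and lipid handling genes outside the lysosome, 9 were measured and none passed the fold. Abca1, a cholesterol efflux transporter, was at -0.35.

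**Figure D5:**
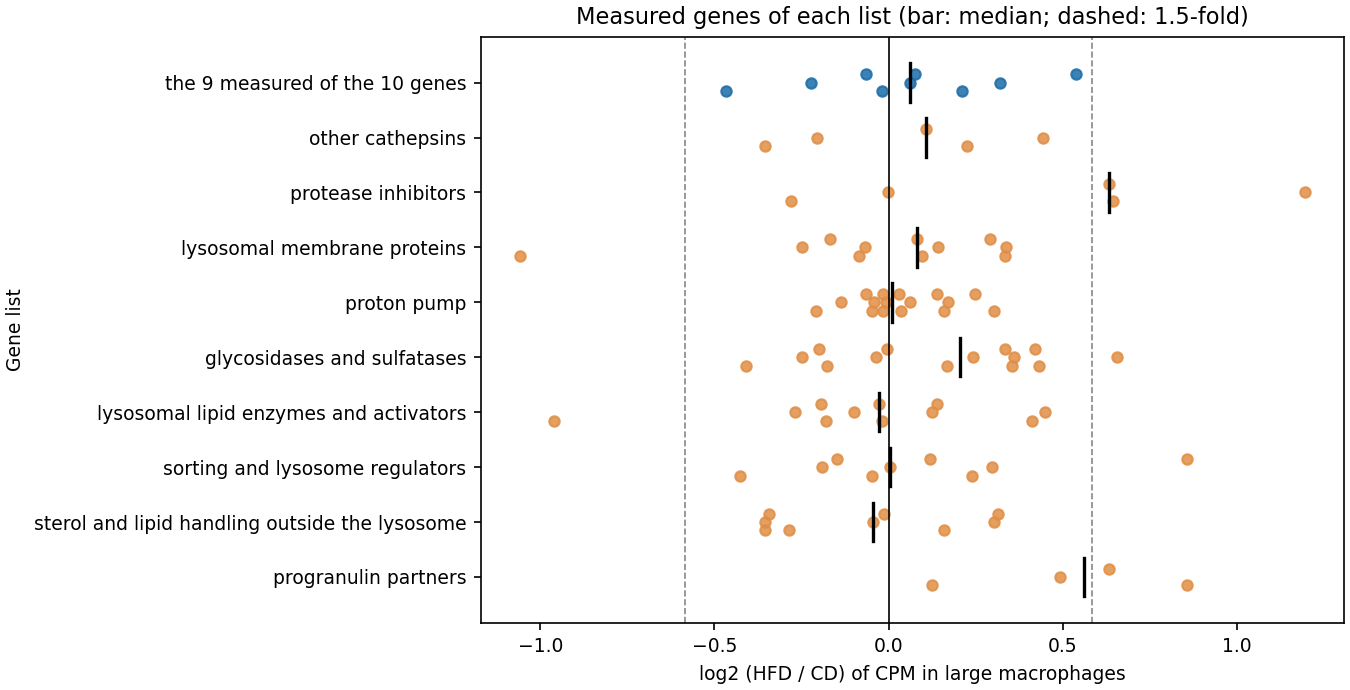
HFD over CD log2 ratio in large macrophages (horizontal axis) of each measured gene (points) by list (vertical axis), with the median of each list as a bar and the fold of 1.5 dashed. The median over the 9 measured of the 10 genes is 0.06, protease inhibitors (median 0.63) and progranulin partners (median 0.56) have the highest medians, and the proton pump subunits have a median of 0.01. The lists were chosen with earlier results of these data known, and no B barcode profile was subtracted.

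The pattern over the 10 points of 5 classes by 2 libraries was compared with 4096 genes at 50 CPM or more somewhere, as log2 of CPM plus 10. The genes with the highest correlation with the mean of the members were Pygl and Tmbim1, both at 0.997, then Tcn2 at 0.997, Laptm4a at 0.996 and Ftl1 at 0.996. The members themselves ran from 0.858 for Ctss to 0.992 for Grn. Each member is part of that mean, so its value is in part built in. The points share libraries and depth, so these values are a description.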

How the data were processed

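The deposited matrices hold counts of UMIs per gene and barcode, raw and not normalized. Cell Ranger 8.0.1 made them per the file headers, whereas version 6.0.1 of that tool is given, with Seurat 4.3.0 and build mm39, per the submitters' processing notes. Settings of cell calling are not given in the sources used here. The deposited receptor tables were used only for their barcodes. Barcodes under 300 genes or above 10% mitochondrial UMIs were dropped, which kept 13069 of 13227 in CD and 6684 of 6897 in HFD. The matrices hold 73549582 and 57630074 UMIs. No doublet caller was used, and barcodes with markers of another lineage were left out in an alternative. These were markers of B cells, T cells, macrophages or dendritic cells, with no neutrophil marker among them.

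UMIs were summed per class and library and expressed as CPM. Ratios carry exact conditional Poisson intervals, levels exact Poisson intervals and shares Clopper-Pearson intervals, all at 95% and covering counting error only. Measured genes had at least 20 CPM in the higher library and 50 UMIs over both. The profile of B barcodes or large macrophages was subtracted, in alternatives, after scaling to their markers. Scripts used Python 3.11.15, numpy 2.4.6 and scipy 1.17.1 and were tested on simulated data. Genes were named by rule: all 10 members, genes from the 2 highest and 2 lowest measured of each other list in large macrophages, and the 5 genes most like the members over the classes. The members and lists were chosen with earlier results of these data known.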

Additional observations from a re-analysis of the deposited data

Results flagged for a closer look

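For 3 genes the HFD over CD log2 ratio had opposite signs in macrophages and in B barcodes, with intervals off 0 in each. This is what marked them out. Ctss also had opposite signs, at -0.47, -0.46 and 0.02 in large macrophages, Folr2 macrophages and B barcodes, but its interval in B barcodes held 0. The difference between the classes was not tested. Ctsd was at 0.21 in large macrophages, 0.21 in Folr2 macrophages and -0.41 in B barcodes. Ctsl was at 0.32, 0.36 and -0.32 in the same classes. Lgmn was at 0.077, 0.21 and -0.18. The macrophage reference genes in B barcodes summed to 2241 CPM in CD and 1425 in HFD, and without barcodes that carried markers of another lineage the B barcode ratios were 0.06 for Ctsd, 0.15 for Ctsl and 0.12 for Lgmn. In large macrophages the ratios without such barcodes were 0.09 for Ctsd, 0.16 for Ctsl and -0.04 for Lgmn, so the sign of Lgmn turned there as well. In Folr2 macrophages they were 0.13 for Ctsd, 0.19 for Ctsl and 0.08 for Lgmn, whose interval then included 0. Ctss without such barcodes was at -0.56 in large macrophages, -0.55 in Folr2 macrophages and 0.15 (0.12 to 0.19) in B barcodes.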

How the results depend on the processing

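No paired analysis was possible because each diet has 1 expression library, and the replicate number is only a name. The results followed were the medians and counts of members in the 4 classes and the number of genes with the same highest class in both libraries (7, and 6 after thinning). Of their values under the alternatives, 125 were labelled the same as the main value and 23 moved, by limits not given here. The 125 include values without the gene minimum, which could not differ for the members. In large macrophages, subtraction of the B barcode profile gave a median log2 ratio of -0.061 and 1 member lower by 1.5-fold, Ctss. In Folr2 macrophages, counts of members higher by 1.5-fold were 2 after thinning to 2000 UMIs, 1 with class rules on thinned counts (54 and 26 barcodes) and 1 among barcodes of 4000 to 12000 UMIs, and counts of members lower were 1 in the last 2 of these settings and 1 without mixed barcodes. The median there was -0.16 at 4000 to 12000 UMIs. In dendritic cells, 2 members were higher after thinning, 2 with stricter class rules and 2 after subtraction of the macrophage profile, and 1 each with class rules on thinned counts, without mixed barcodes, without cycling barcodes and with equal weight per barcode. At 4000 to 12000 UMIs the median there was -0.16 and 1 member was lower. In B barcodes, the median was 0.083 without mixed barcodes and 0.024 after subtraction of the macrophage profile, with 1 member higher, Grn, in each, and 2 were lower at 4000 to 12000 UMIs, Ctsd and Ctsl. The cause of these shifts was not tested. The window of 4000 to 12000 UMIs and the macrophage subtraction were added after the data were seen. Dropping the gene minimum changed only the background, since it cannot change a ratio of a member. The dendritic and Folr2 classes are small, so Npc1, with 16 to 49 UMIs there, cannot show a difference at this depth.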

Other observations

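Barcodes that met no class rule, 2647 in CD and 686 in HFD, held 1485 and 1732 CPM summed over the 10 genes.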
